A study of Arabidopsis with 27 samples.

Results

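Transcripts of 9 membrane-associated proteins tied to electrical and calcium signals were followed in systemic leaves of Arabidopsis thaliana. They are 4 plasma membrane proton pumps (AHA1, AT2G18960; AHA2, AT4G30190; AHA3, AT5G57350; AHA11, AT5G62670), the mechanosensitive channel MSL10 (AT5G12080) and 4 annexins (ANNAT1, AT1G35720; ANNAT2, AT5G65020; ANNAT3, AT2G38760; ANNAT4, AT2G38750). The 9 genes were taken by their identifiers from a table of 32824 genes, and all 9 were among the 16577 that were tested because their mean reached 1 FPKM. FPKM counts mapped fragments relative to the length of the transcript and to the total of the library. RNA was sequenced from 27 pools of rosette leaves in 9 groups of 3, each pool from 8 plants of 4 weeks kept in a day of 10 h light and 14 h dark. The genotypes were 2 double mutants, glr3.3glr3.6 and p2k1p2k2, and wild-type Col-0. In each genotype a local leaf received eATP, L-Glu or buffer alone (mock), and a leaf that had not been treated was frozen 30 min later. The agent written eATP here is called ATP in the sample titles, and the treatment label gives it as 300 µM βγmeATP, an ATP analogue; L-Glu was given at 100 mM. The mutants are named for 2 glutamate receptor-like channels (GLR3.3, GLR3.6) and 2 lectin receptor kinases that perceive extracellular ATP (P2K1, P2K2). The labels do not describe how the mutant alleles change the genes.

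Plasma membrane H+-ATPases use ATP to move protons out of the cell, and so set the membrane potential and the gradient that drives ion and sugar transport. A bound 14-3-3 protein keeps such a pump active, and clade D protein phosphatases reverse the phosphorylation on which that binding rests. MSL10 is a plasma membrane channel of the MscS-like family that opens under membrane tension and has been tied, with the GLR3.3 and GLR3.6 channels, to the electrical signal that spreads from wounded leaves. Annexins are small soluble proteins that bind membrane phospholipids in the presence of calcium, and ANNAT1 has been tied to calcium entry across the plasma membrane of root cells.

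Summed FPKM ran from 740955 to 822758 per library, with 21042 to 21843 genes above 0, and the correlation across genes within a group was 0.939 to 0.974. The depth of the libraries is unknown, since FPKM carry no counts. The genes named in the mutants were higher, not lower, in the libraries that bear their labels: GLR3.6 averaged 95.9 ± 22.1 FPKM in the libraries labelled glr3.3glr3.6 and 1.06 ± 0.217 FPKM in those labelled Col-0, and P2K2 averaged 16.9 ± 8.76 FPKM in the libraries labelled p2k1p2k2 and 0.551 ± 0.201 FPKM in Col-0 (SD, n = 9 each). GLR3.3 and P2K1 were also higher, at 7.0 ± 0.689 against 3.91 ± 0.533 FPKM and at 6.40 ± 2.57 against 1.60 ± 0.364 FPKM. Genotype names therefore stand for the labels throughout. Leaf identity was plain, with the summed FPKM of 5 mesophyll markers between 21958 and 31440, while 6 root markers summed to at most 0.731. Libraries of different replicate number differed in many genes, and 3 libraries stood apart in the 9 genes: Col-0 eATP 3 for the pumps, and Col-0 mock 2 and p2k1p2k2 mock 1 for ANNAT3 and ANNAT4. A library is named here by its group and replicate number.

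**Figure D1:**
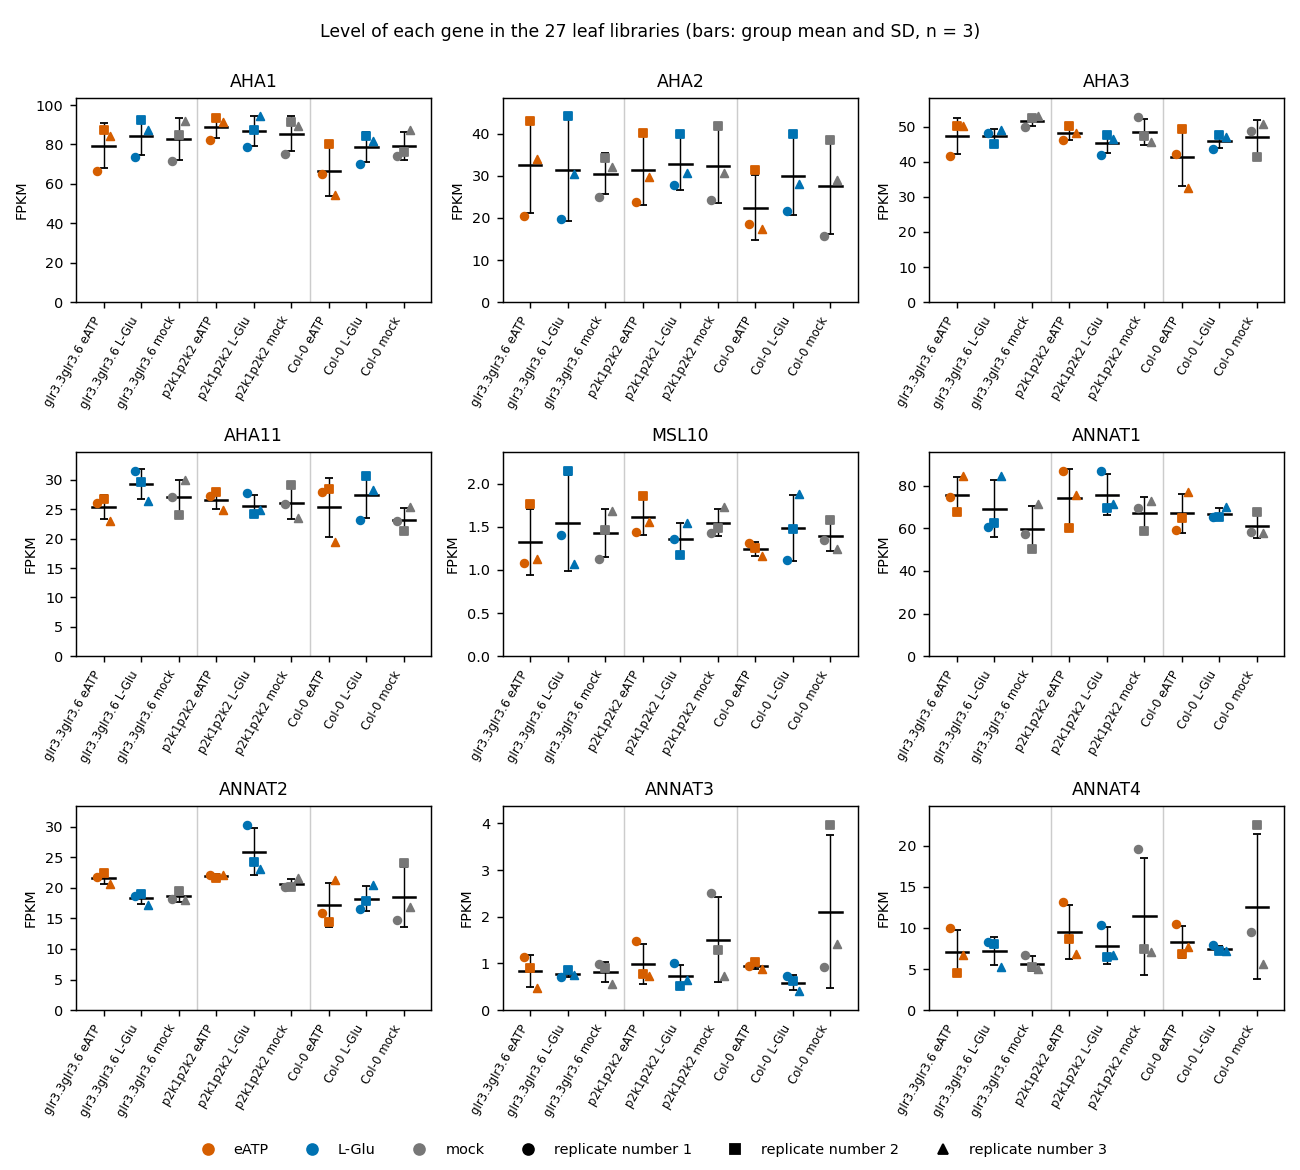
FPKM of the 9 genes in each of the 27 libraries, with groups along the x axis (glr3.3glr3.6, p2k1p2k2 and Col-0, each with eATP, L-Glu and mock), colour for the treatment and marker shape for the replicate number; bars give the group mean and SD of 3 libraries. The y axes are linear, start at 0 and differ between panels; AHA1 lies between 54.3 and 94.2 FPKM, while ANNAT3 reaches 3.97 FPKM in Col-0 mock 2 only.

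AHA1, the pump best known for its part in stomatal opening, was the most abundant of the 9 transcripts, at 81.4 ± 10.1 FPKM (SD, n = 27), which is above 91.6% of the tested genes. AHA3, a pump known from phloem companion cells, averaged 47.0 ± 4.39 FPKM, AHA2, the main pump of roots together with AHA1, 30.1 ± 8.28 FPKM, and AHA11 26.2 ± 2.92 FPKM. FPKM are scaled to length, so these levels can be set beside each other. Of the summed FPKM of all 11 AHA genes, which averaged 193 ± 21.3 FPKM, AHA1 held 42.2%, AHA3 24.5%, AHA2 15.4% and AHA11 13.7%. The other 7 AHA genes made up the small rest, with AHA5 at 4.62 ± 0.562 FPKM, AHA8 at 2.55 ± 0.353 FPKM and AHA6 listed at 0 in all 27 libraries. AHA1 and AHA2 encode closely related proteins, and how the authors' counting divided reads between similar copies is not given in the sources used here, so the split between these 2 pumps is uncertain.

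MSL10 was scarce, at 1.44 ± 0.277 FPKM (SD, n = 27), with a lowest value of 1.06 FPKM in glr3.3glr3.6 L-Glu 3 and a highest of 2.15 FPKM in glr3.3glr3.6 L-Glu 2. Only 5.44% of the tested genes had a lower mean. Some relatives of the MscS-like family were more abundant in the same leaves. MSL3 and MSL2, channels of the plastid envelope, averaged 43.7 ± 8.44 and 12.2 FPKM, and MSL6 averaged 4.94 FPKM. MSL9, a channel that acts together with MSL10 in root cells, averaged 0.00400 FPKM.

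Among the annexins ANNAT1 held 69.8% of the summed FPKM of all 8 annexin genes, ANNAT2 20.5%, ANNAT4 8.60% and ANNAT3 1.04%. ANNAT1 averaged 68.6 ± 9.71 FPKM, ANNAT2 20.1 ± 3.37 FPKM, ANNAT4 8.55 ± 4.11 FPKM and ANNAT3 1.03 ± 0.717 FPKM (SD, n = 27). ANNAT3 thus lay just above the limit of 1 FPKM for testing, and MSL10 not far above it. The remaining annexin genes were nearly silent: ANN5 reached at most 0.226 FPKM, ANN7 0.0912 FPKM and ANN8 0.0789 FPKM in any library, and ANN6 was listed at 0 in all 27.

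The 9 genes differed widely in how much they varied. AHA3 was among the steadiest, with a coefficient of variation of 9.34% over the 27 libraries, lower than in all but 9.13% of the tested genes, followed by AHA11 (11.1%), AHA1 (12.4%) and ANNAT1 (14.2%). ANNAT2 (16.8%) and MSL10 (19.3%) were intermediate, and AHA2 (27.5%) varied more than 78.9% of the tested genes. ANNAT4 and ANNAT3 varied most, at 48.1% and 69.3%, above 93.2% and 96.5% of the tested genes. Their highest and lowest libraries differed 5.03-fold for ANNAT4 and 9.45-fold for ANNAT3, against 1.62-fold for AHA3.

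The order of the 9 group means was not resolved for most genes. The highest and lowest group means of AHA1 were 89.1 ± 5.84 FPKM in p2k1p2k2 eATP and 66.6 ± 13.0 FPKM in Col-0 eATP (SD, n = 3 each). Those of AHA3 were 51.7 ± 1.66 FPKM in glr3.3glr3.6 mock and 41.5 ± 8.46 FPKM in Col-0 eATP. Col-0 eATP was also the lowest group of AHA2 (22.5 ± 7.80 FPKM), MSL10 (1.24 ± 0.0799 FPKM) and ANNAT2 (17.2 ± 3.6 FPKM), and Col-0 mock was the lowest of AHA11 (23.2 ± 2.04 FPKM) and the highest of ANNAT3 (2.11 ± 1.63 FPKM) and ANNAT4 (12.6 ± 8.85 FPKM). With the groups put in order of their means, none of the 8 gaps between neighbours was larger than the larger of the 2 SDs for 8 of the genes, and 3 of 8 were for ANNAT2.

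The first question was whether eATP or L-Glu on a local leaf changed the transcripts in the systemic leaf within each genotype. None of the 9 genes passed the test in any of the 6 comparisons with mock. This was the state of the whole table, since 0% of the 16577 genes were called in each of the 6 (limma, two-sided, Benjamini-Hochberg adjusted p under 0.05). At an unadjusted p under 0.05 there were 561 genes with eATP and 328 with L-Glu in glr3.3glr3.6, 297 and 285 in p2k1p2k2, and 438 and 146 in Col-0. Of the 54 tests of the 9 genes, 3 had an unadjusted p under 0.05, and 26 of the 54 differences were positive. The differences, on the log2(FPKM + 1) scale, ran from -0.85 to 0.34. That scale understates the change of scarce genes, above all of ANNAT3 and MSL10. The eATP and L-Glu comparisons of a genotype share its mock libraries and are not independent. Replicate numbers paired the libraries for L-Glu in each genotype and for eATP in p2k1p2k2, but this fit left the number out. With the number added to the fit, none of the 9 genes was called in these comparisons either. Libraries are pools of plants, so the p measures the spread between pools, and in whole leaves fewer cells of a type and less RNA per cell cannot be told apart.

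**Figure D2:**
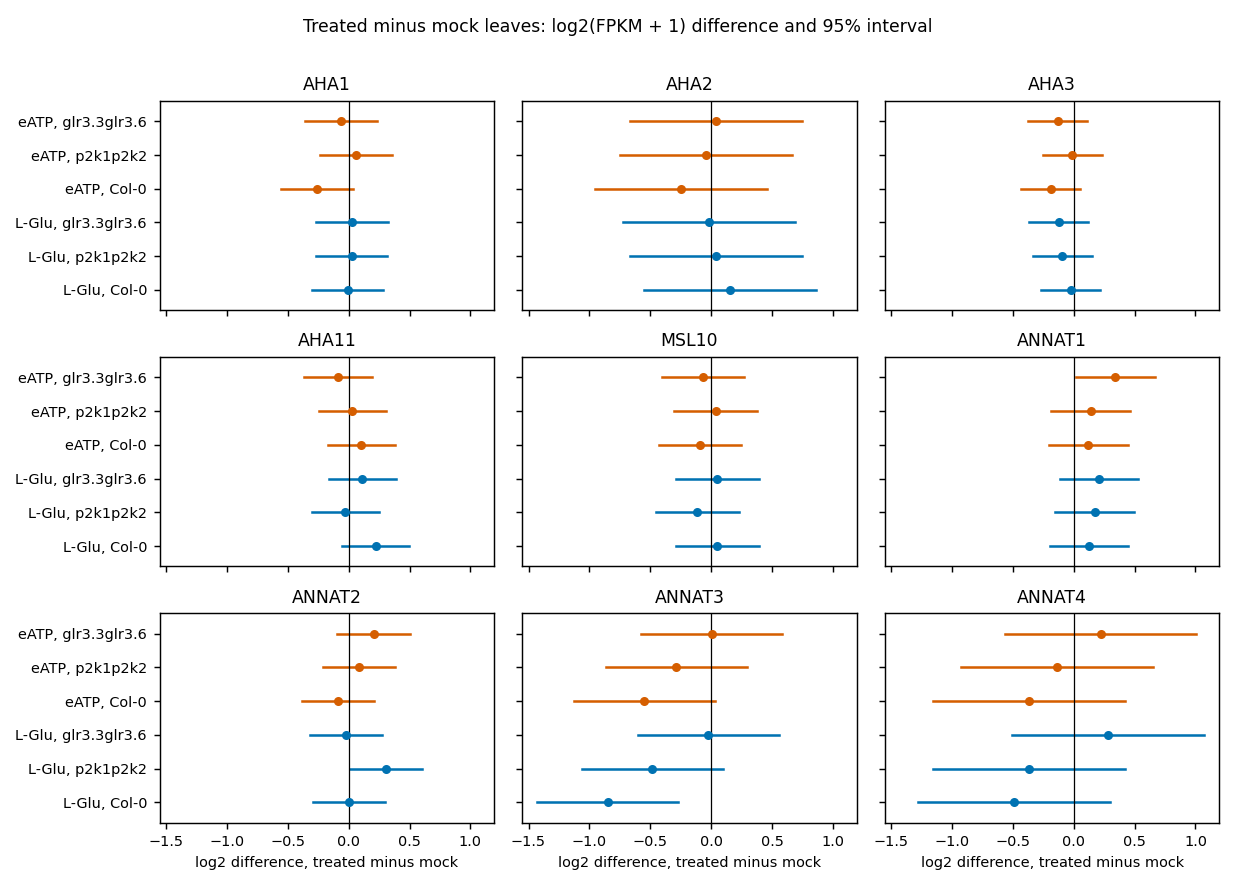
Log2(FPKM + 1) difference between treated and mock leaves (x axis) for each of the 9 genes in the 6 comparisons (rows, eATP and L-Glu in each genotype); points are limma estimates and bars their 95% intervals. The intervals cross 0 in all but 3 of the 54 comparisons: ANNAT3 with L-Glu in Col-0, ANNAT1 with eATP in glr3.3glr3.6 and ANNAT2 with L-Glu in p2k1p2k2.

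Among the pumps, AHA1 had 65.3, 80.2 and 54.3 FPKM in Col-0 eATP 1, 2 and 3, against 74.1, 76.1 and 87.3 FPKM in Col-0 mock 1, 2 and 3. The groups overlapped, and the third eATP library was the lowest AHA1 value of all 27. The log2 difference was -0.26 ± 0.14 (SE; 95% interval -0.55 to 0.03; adjusted p = 1 by limma), and -0.12 without Col-0 eATP 3. AHA3 showed the same library apart, with 42.3, 49.4 and 32.6 FPKM in Col-0 eATP against 48.8, 41.4 and 50.7 FPKM in Col-0 mock. Its difference was -0.19 ± 0.12 (SE), and -0.03 without that library. Col-0 eATP 3 was also the lowest of the 27 for AHA11 and the second lowest for AHA2, and it had the highest summed FPKM of all libraries. Whether this bears on its low pump values was not tested.

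In the mutants the treated and mock libraries of AHA1 overlapped in each comparison. It had 66.3, 87.4 and 84.5 FPKM with eATP and 73.4, 92.3 and 87.4 FPKM with L-Glu in glr3.3glr3.6, against 71.4, 84.6 and 92.1 FPKM with mock. In p2k1p2k2 it had 82.4, 93.4 and 91.4 FPKM with eATP and 78.8, 87.4 and 94.2 FPKM with L-Glu, against 75.2, 91.6 and 89.6 FPKM with mock. Treated and mock libraries of number 1 were the lowest of their groups in both mutants. AHA2 showed the same arrangement, with 20.5, 42.9 and 33.9 FPKM with eATP and 19.8, 44.1 and 30.4 FPKM with L-Glu in glr3.3glr3.6, against 25, 34.3 and 32.1 FPKM with mock. In p2k1p2k2 it had 23.9, 40.3 and 29.8 FPKM with eATP and 27.9, 39.9 and 30.6 FPKM with L-Glu, against 24.4, 41.8 and 30.7 FPKM with mock. For AHA2 the spread between numbers exceeded the distance between treatment means in these 2 mutants.

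In Col-0 AHA2 had 18.6, 31.4 and 17.4 FPKM with eATP against 15.6, 38.4 and 29.0 FPKM with mock, a difference of -0.25 ± 0.34 (SE; 95% interval -0.96 to 0.46), which was -0.10 without Col-0 eATP 3 and 0.02 without Col-0 mock 2. AHA11 had 28.0, 28.5 and 19.5 FPKM in Col-0 eATP against 23.0, 21.3 and 25.3 FPKM in Col-0 mock, a difference of 0.11 ± 0.13, or 0.28 without Col-0 eATP 3. The eATP and mock groups of Col-0 overlapped for all 9 genes, while 4.68% of the tested genes were apart. Across the 6 comparisons the estimates of AHA1 ran from -0.26 to 0.06, of AHA2 from -0.25 to 0.15, of AHA3 from -0.19 to -0.01 and of AHA11 from -0.09 to 0.22. The outer bounds of their 95% intervals were -0.55 and 0.36 for AHA1, -0.43 and 0.23 for AHA3, and -0.96 and 0.86 for AHA2. A change of AHA2 by a large fraction could not be detected by this fit, which left out the replicate number, along which AHA2 differed. Within numbers 1, 2 and 3 the AHA2 differences with eATP were 0.24, -0.28 and -0.71 in Col-0. They were -0.27, 0.31 and 0.08 in glr3.3glr3.6, and -0.03, -0.05 and -0.04 in p2k1p2k2. AHA3 alone of the 4 had a negative estimate in 6 of 6 comparisons, although those for eATP in p2k1p2k2 and L-Glu in Col-0 lay so near 0 that leaving out 1 library turned them (0.05 without p2k1p2k2 mock 1, 0.03 without Col-0 mock 3). Its groups were apart in 1 of them, with 48.3, 45.2 and 48.9 FPKM in glr3.3glr3.6 L-Glu against 49.8, 52.4 and 52.9 FPKM in glr3.3glr3.6 mock (-0.12 ± 0.12, SE; adjusted p = 1 by limma). Of all tested genes 5.53% had groups that did not overlap in that comparison, 2.57% with L-Glu lower.

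For MSL10 the 6 estimates ran from -0.11 to 0.05, with 95% intervals between -0.45 and 0.39 on the log2(FPKM + 1) scale. It had 1.32, 1.25 and 1.16 FPKM in Col-0 eATP and 1.11, 1.48 and 1.88 FPKM in Col-0 L-Glu, against 1.34, 1.58 and 1.25 FPKM in Col-0 mock. In glr3.3glr3.6 it had 1.08, 1.77 and 1.13 FPKM with eATP and 1.41, 2.15 and 1.06 FPKM with L-Glu, against 1.13, 1.47 and 1.69 FPKM with mock. In p2k1p2k2 the values were 1.44, 1.86 and 1.56 FPKM with eATP and 1.36, 1.17 and 1.54 FPKM with L-Glu, against 1.43, 1.49 and 1.73 FPKM with mock. Treated and mock libraries overlapped in each genotype. Neither direction was shared by the 6 comparisons, with 3 estimates above 0 and 3 below.

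The annexins held all 3 of the differences with an unadjusted p under 0.05. ANNAT3, an annexin tied to membrane traffic to the vacuole, had 0.741, 0.617 and 0.421 FPKM in Col-0 L-Glu against 0.935, 3.97 and 1.42 FPKM in Col-0 mock. All 3 L-Glu libraries lay below all 3 mock libraries, as they did for 1.36% of the tested genes, and 4.46% of the genes were apart in either direction. The means were 0.593 ± 0.162 and 2.11 ± 1.63 FPKM (SD, n = 3 each), and the log2(FPKM + 1) difference was -0.85 ± 0.28 (SE; 95% interval -1.43 to -0.27; unadjusted p = 0.00610, adjusted p = 1 by limma). Without Col-0 mock 2 the difference was -0.45. ANNAT3 is at the floor of the tested range, and its difference in L-Glu leaves of glr3.3glr3.6 was -0.02 ± 0.28 (SE) and in those of p2k1p2k2 -0.48 ± 0.28 (SE), where p2k1p2k2 mock 1, at 2.5 FPKM, was the library apart and the difference without it was -0.21.

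ANNAT1 had 74.6, 67.6 and 84.5 FPKM in glr3.3glr3.6 eATP against 57.4, 50.5 and 71.3 FPKM in glr3.3glr3.6 mock. Each eATP library was above the mock library of its number, but the groups overlapped. The means were 75.6 ± 8.49 and 59.7 ± 10.6 FPKM (SD, n = 3 each), a log2 difference of 0.34 ± 0.16 (SE; 95% interval 0.02 to 0.67; unadjusted p = 0.0391, adjusted p = 1 by limma). ANNAT1 was the gene of the 9 with positive estimates in 6 of 6 comparisons, from 0.12 to 0.34. In Col-0 it had 59.1, 64.9 and 77.2 FPKM with eATP and 65.2, 65.2 and 70.2 FPKM with L-Glu, against 58.5, 67.8 and 57.7 FPKM with mock. In p2k1p2k2 it had 87.2, 60.4 and 75.8 FPKM with eATP and 86.8, 69.6 and 71.2 FPKM with L-Glu, against 69.8, 58.6 and 72.9 FPKM with mock. Treated and mock libraries overlapped in each of these 4 comparisons.

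Averaged over the 3 genotypes, ANNAT1 was at 72.4 ± 10.0 FPKM with eATP and 62.7 ± 7.83 FPKM with mock (SD, n = 9 each), a log2 difference of 0.20 ± 0.09 (SE; 95% interval 0.01 to 0.39; unadjusted p = 0.0365, adjusted p = 1 by limma). Within replicate numbers 1, 2 and 3 it was 0.23, 0.13 and 0.24. With L-Glu it averaged 70.7 ± 9.19 FPKM, a difference from mock of 0.17 ± 0.09 (SE; unadjusted p = 0.0736), and 0.18, 0.16 and 0.16 within the numbers. Both treatments share the mock libraries. For ANNAT3 the averages were 0.699 ± 0.174 FPKM with L-Glu and 1.48 ± 1.1 FPKM with mock, a difference of -0.45 ± 0.16 (SE; unadjusted p = 0.0104, adjusted p = 1 by limma), which was -0.32 without Col-0 mock 2. In these averaged comparisons too 0% of the tested genes were called; 263 had an unadjusted p under 0.05 with eATP and 176 with L-Glu.

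ANNAT2, tied with ANNAT1 to sugar movement in the phloem of roots, had groups that did not overlap in 3 of the 6 comparisons. It had 30.3, 24.3 and 23.1 FPKM in p2k1p2k2 L-Glu and 22.0, 21.6 and 22.1 FPKM in p2k1p2k2 eATP, against 20.2, 20.1 and 21.6 FPKM in p2k1p2k2 mock. All treated libraries lay above all mock ones, by a wide margin in L-Glu 1 and a narrow one in eATP 2. The difference with L-Glu was 0.31 ± 0.14 (SE; 95% interval 0.01 to 0.60; unadjusted p = 0.0433, adjusted p = 1 by limma) and that with eATP 0.08 ± 0.14 (SE). In glr3.3glr3.6 it had 21.7, 22.3 and 20.6 FPKM with eATP, against 18.2, 19.5 and 18 FPKM with mock (0.20 ± 0.14, SE; adjusted p = 1 by limma). Groups did not overlap for 5.68% of the tested genes with L-Glu in p2k1p2k2 (3.63% with L-Glu higher), for 5.94% with eATP in p2k1p2k2 (4.85% with eATP higher) and for 6.77% with eATP in glr3.3glr3.6 (4.43% with eATP higher). In Col-0, where 1 mock library reached 24.0 FPKM, its estimates were -0.09 ± 0.14 (SE) with eATP and 0.00 ± 0.14 (SE) with L-Glu, and 0.10 and 0.20 without that library.

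ANNAT4, which forms a gene pair with ANNAT3 and has been tied with ANNAT1 to drought and salt responses, had 10.5, 6.78 and 7.62 FPKM in Col-0 eATP and 7.91, 7.13 and 7.18 FPKM in Col-0 L-Glu, against 9.54, 22.6 and 5.66 FPKM in Col-0 mock. The mock group alone spanned the treated values. The differences from mock were -0.37 ± 0.38 (SE) with eATP and -0.49 ± 0.38 (SE) with L-Glu, and 0.13 and 0.00 without Col-0 mock 2. The 6 estimates ran from -0.49 to 0.28, with 95% intervals from -1.28 to 1.07, so the test was blunt for this gene.

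Set against each other in the same genotype, eATP and L-Glu gave 0 called genes of the 9, against 0% of all tested genes in each genotype. The smallest adjusted p of the 9 genes was 0.839 (limma). An unadjusted p under 0.05 was found for 999 of all genes in Col-0, 276 in glr3.3glr3.6 and 270 in p2k1p2k2. In the comparison averaged over the genotypes there were 332 such genes. ANNAT2 had 22.0, 21.6 and 22.1 FPKM with eATP and 30.3, 24.3 and 23.1 FPKM with L-Glu in p2k1p2k2. In glr3.3glr3.6 it had 21.7, 22.3 and 20.6 FPKM with eATP and 18.7, 19.1 and 17.2 FPKM with L-Glu. The eATP libraries thus lay below those of L-Glu in the first mutant and above them in the second. Groups did not overlap for 5.32% of the tested genes in p2k1p2k2 (1.47% with eATP lower) and for 4.33% in glr3.3glr3.6 (2.68% with eATP higher). ANNAT3 in Col-0 was likewise apart, at 0.952, 1.03 and 0.879 FPKM with eATP and 0.741, 0.617 and 0.421 FPKM with L-Glu, in a comparison where 8.32% of the genes were apart, 1.85% with eATP higher.

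A second question was whether the mutants answered otherwise than Col-0. Responses of mutant and wild-type leaves were tested against each other directly, as an interaction, and 0 of the 9 genes were called in the 4 comparisons, against 0% of the tested genes. The only unadjusted p under 0.05 among the 36 tests was that of ANNAT3 for L-Glu in glr3.3glr3.6 less that in Col-0 (0.82 ± 0.39, SE; 95% interval 0.01 to 1.64; unadjusted p = 0.0483, adjusted p = 1 by limma). It rests on the same Col-0 mock libraries as the ANNAT3 difference in Col-0.

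Without a stimulus, mutant and Col-0 leaves did not differ by the test in any of the 9 genes, against 0.0483% of the tested genes called for glr3.3glr3.6 mock and 0.0362% for p2k1p2k2 mock. In the second of these the replicate numbers paired the libraries, and a block on the number within genotype raised the genes called from 6 to 10, with 0 of the 9. No gene of the 9 had groups apart, against 5.16% and 5.53% of all tested genes. The 4 pumps had positive estimates in both mutants, with medians of 0.18 in glr3.3glr3.6 and 0.14 in p2k1p2k2 beside 0.01 and 0.02 over all tested genes. In the same comparisons epidermis markers were 7 of 7 positive in both mutants (medians 0.29 and 0.13), as were phloem markers (0.12 and 0.15), with 0 called, and their part in the pump estimates was not tested. Mesophyll markers were 4 of 5 positive in glr3.3glr3.6 and 2 of 5 in p2k1p2k2 (medians 0.02 and -0.002). The AHA2 estimates turned negative without Col-0 mock 1 (-0.14 and -0.08), and the AHA3 estimate in p2k1p2k2 turned negative without Col-0 mock 2 (-0.04) or p2k1p2k2 mock 1 (-0.01), as did that of AHA1 in glr3.3glr3.6 without glr3.3glr3.6 mock 3 (-0.02). ANNAT4 had 6.76, 5.29 and 4.96 FPKM in glr3.3glr3.6 mock against 9.54, 22.6 and 5.66 FPKM in Col-0 mock. The groups overlapped and Col-0 mock 2 stood far above the rest. The difference was -0.84 ± 0.38 (SE; 95% interval -1.62 to -0.05; unadjusted p = 0.0388, adjusted p = 1 by limma), and -0.34 without that library. For ANNAT3 the corresponding values were -0.66 ± 0.28 (SE; unadjusted p = 0.0266, adjusted p = 1 by limma), and -0.26 without it.

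Averaged over the 3 treatments, with 9 libraries a genotype, the 9 genes were again not called in either mutant, against 0.109% of the tested genes called for p2k1p2k2 and 0.151% for glr3.3glr3.6. For p2k1p2k2 this depended on how the model treated the replicate number: with a block shared by the genotypes AHA1, AHA2 and ANNAT2 were called (adjusted p = 0.0265, 0.0307 and 0.0219 by limma), and likewise with the block within genotype (0.0328, 0.0352 and 0.0206), while 1098 and 1156 of all tested genes, rather than 18, were called. In p2k1p2k2 8 of the 9 estimates were positive, with a median of 0.09 beside 0.04 over all genes. The gene that came nearest to the threshold was ANNAT2. Its lowest, median and highest values were 20.1, 22.0 and 30.3 FPKM in p2k1p2k2 against 14.4, 16.8 and 24.0 FPKM in Col-0. The middle values were apart while the ranges overlapped. The means were 22.8 ± 3.10 and 18 ± 3.24 FPKM (SD, n = 9 each), a log2 difference of 0.34 ± 0.08 (SE; 95% interval 0.16 to 0.51; unadjusted p = 0.00053, adjusted p = 0.0961 by limma). Within replicate numbers 1, 2 and 3 the difference was 0.57, 0.25 and 0.19. It passed the threshold without Col-0 mock 2 (0.40, adjusted p = 0.0167) or without Col-0 eATP 3 (0.39, adjusted p = 0.0399), and the adjusted p reached 0.225 when another library was left out.

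**Figure D3:**
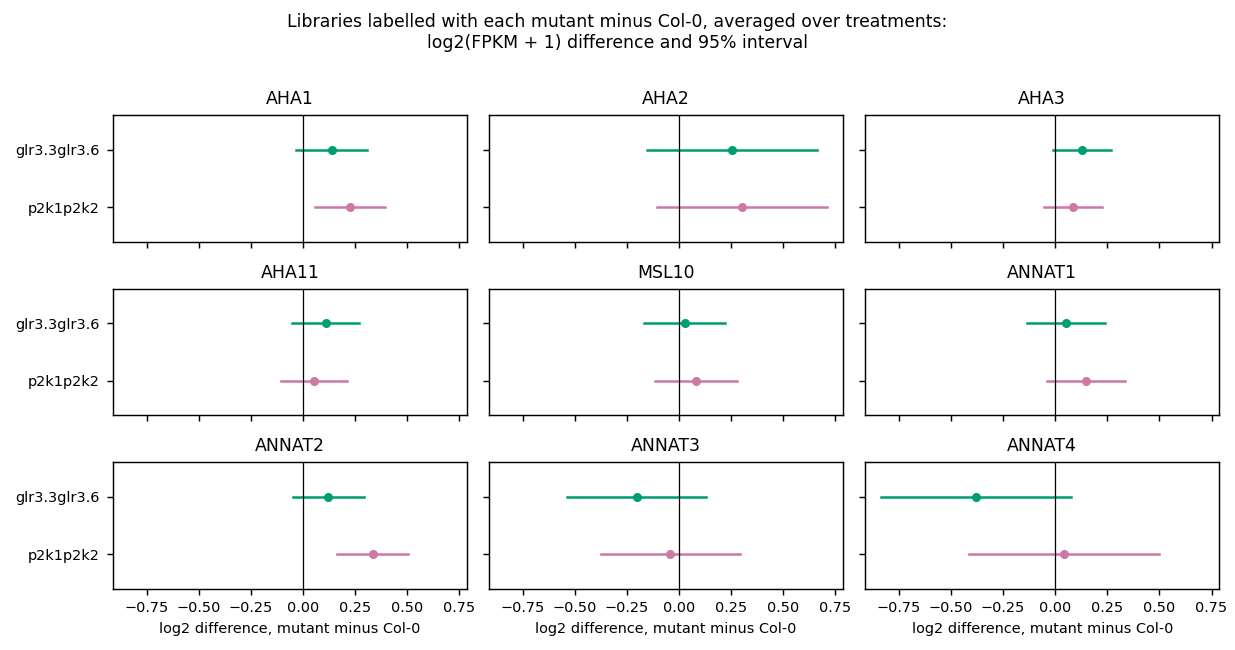
Log2(FPKM + 1) difference between mutant and Col-0 libraries averaged over the 3 treatments (x axis) for each of the 9 genes, with glr3.3glr3.6 and p2k1p2k2 on separate rows; points are limma estimates from 9 libraries a genotype and bars their 95% intervals. All 4 pump estimates lie right of 0 in both mutants, though those of AHA11 fall left of 0 with library weights (-0.01 in glr3.3glr3.6 and -0.05 in p2k1p2k2). In the plotted fit, which leaves out the replicate number, only AHA1 and ANNAT2 in p2k1p2k2 have intervals clear of 0. AHA2 in p2k1p2k2 is 0.30 ± 0.08 (SE; adjusted p = 0.0307 by limma) once a term for that number, shared by the genotypes, enters the model.

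AHA1 ran from 75.2 to 94.2 FPKM in p2k1p2k2, with a median of 89.6 FPKM, and from 66.3 to 92.3 FPKM in glr3.3glr3.6, with a median of 84.6 FPKM. In Col-0 it ran from 54.3 to 87.3 FPKM, with a median of 76.1 FPKM. The 3 ranges overlapped. The difference of p2k1p2k2 from Col-0 was 0.23 ± 0.08 (SE; 95% interval 0.06 to 0.40; unadjusted p = 0.0117, adjusted p = 0.240 by limma), with 0.17, 0.18 and 0.33 within numbers 1, 2 and 3, and 0.18 without Col-0 eATP 3. For glr3.3glr3.6 it was 0.14 ± 0.08 (SE; adjusted p = 0.785). AHA2 was estimated at 0.30 ± 0.20 in p2k1p2k2, with 0.44, 0.15 and 0.32 within numbers 1, 2 and 3, and 0.25 ± 0.20 in glr3.3glr3.6, AHA3 at 0.09 ± 0.07 and 0.13 ± 0.07, and AHA11 at 0.05 ± 0.08 and 0.11 ± 0.08 (SE). These SEs come from the fit that left out the replicate number, along which AHA2 differed. Once a term for that number entered the model, the AHA2 estimate in p2k1p2k2 stayed at 0.30, with an SE of 0.08. With library weights the AHA11 estimates were -0.05 and -0.01. The medians of the 4 pumps were 0.16 and 0.13, beside 0.04 and 0.02 over all tested genes. Epidermis markers lay on the same side, with 7 of 7 estimates positive in both mutants (medians 0.25 and 0.13), and phloem markers with 7 of 7 positive in p2k1p2k2 (median 0.15) and 5 of 7 in glr3.3glr3.6 (median 0.06), 0 of them called. The summed FPKM of the epidermis markers ran from 849 to 1430 in p2k1p2k2, from 807 to 1092 in glr3.3glr3.6 and from 741 to 959 in Col-0. That of the phloem markers ran from 154 to 182 FPKM in p2k1p2k2, from 151 to 181 FPKM in glr3.3glr3.6 and from 134 to 184 FPKM in Col-0. Mesophyll markers were mostly on the other side in glr3.3glr3.6, with 1 of 5 positive (median -0.03). Guard cell markers summed to 1506 ± 448 FPKM in p2k1p2k2, 1433 ± 322 FPKM in glr3.3glr3.6 and 1314 ± 291 FPKM in Col-0 (SD, n = 9 each). The part of these markers in the pump estimates was not tested. Both mutants were set against the same Col-0 libraries, Col-0 eATP 3 among them, and without that library the estimates were 0.03 and 0.08 for AHA3 and -0.00261 and 0.05 for AHA11.

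MSL10 averaged 1.51 ± 0.2 FPKM in p2k1p2k2, 1.43 ± 0.378 FPKM in glr3.3glr3.6 and 1.37 ± 0.239 FPKM in Col-0 (SD, n = 9 each). Its differences from Col-0, 0.08 ± 0.09 and 0.03 ± 0.09 (SE), were within the spread of the libraries. ANNAT1 was estimated at 0.15 ± 0.09 in p2k1p2k2 and 0.05 ± 0.09 in glr3.3glr3.6. ANNAT4 averaged 9.59 ± 4.36, 6.63 ± 1.83 and 9.43 ± 5.13 FPKM in p2k1p2k2, glr3.3glr3.6 and Col-0, so that the glr3.3glr3.6 estimate was -0.38 ± 0.22 (SE; unadjusted p = 0.0969) and -0.21 without Col-0 mock 2. Between the mutants, with 0.277% of the tested genes called and 0 of the 9, ANNAT2 had the smallest p: 22.8 ± 3.10 FPKM in p2k1p2k2 against 19.5 ± 1.75 FPKM in glr3.3glr3.6 (0.21 ± 0.08, SE; unadjusted p = 0.0169, adjusted p = 0.459 by limma).

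The clearest differences of the 9 genes ran along the replicate number that the labels give each pool. The labels do not say what libraries of a number share. Libraries of the same number may not be independent, so the p-values here measure how steady a shift was over the 9 groups. They do not measure a spread between independent sets of libraries. Libraries of number 1 were set against those of numbers 2 and 3, with the group as a second term in the model. AHA2 and AHA1 were lower in number 1 and ANNAT4 was higher: 3 of the 9 genes were called, where 53.2% of all tested genes were called, 18.5% higher and 34.7% lower. The 9 genes were thus no more often called than the table as a whole. The split of the whole table depended on scaling, with 3074 genes higher and 5745 lower as deposited, and 4156 higher and 3694 lower after median-of-ratios scaling; the median difference of all genes was -0.07 as deposited.

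AHA2 had a lowest, median and highest value of 15.6, 21.6 and 27.9 FPKM in number 1, 31.4, 39.9 and 44.1 FPKM in number 2 and 17.4, 30.4 and 33.9 FPKM in number 3. The values of numbers 1 and 2 did not overlap. Number 2 was the highest of the 3 libraries in 9 of 9 groups and number 1 the lowest in 8 of 9, Col-0 eATP being the exception. The ratio of number 2 to number 1 ran from 1.37 to 2.47 over the groups. Number 1 averaged 21.9 ± 3.75 FPKM (SD, n = 9) against 34.2 ± 6.73 FPKM in numbers 2 and 3 (SD, n = 18), a log2 difference of -0.61 ± 0.07 (SE; adjusted p = 1.27e-06 by limma). Number 2 lay above number 3 as well, at 39.2 ± 4.04 against 29.1 ± 4.72 FPKM (0.43 ± 0.08, SE; adjusted p = 0.000597 by limma). In this comparison 2 of the 9 genes were called, against 26.4% of all tested genes, 12.8% higher and 13.6% lower. The share of AHA2 in the summed FPKM of the AHA genes was 12.5% in number 1, 18.8% in number 2 and 14.9% in number 3.

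**Figure D4:**
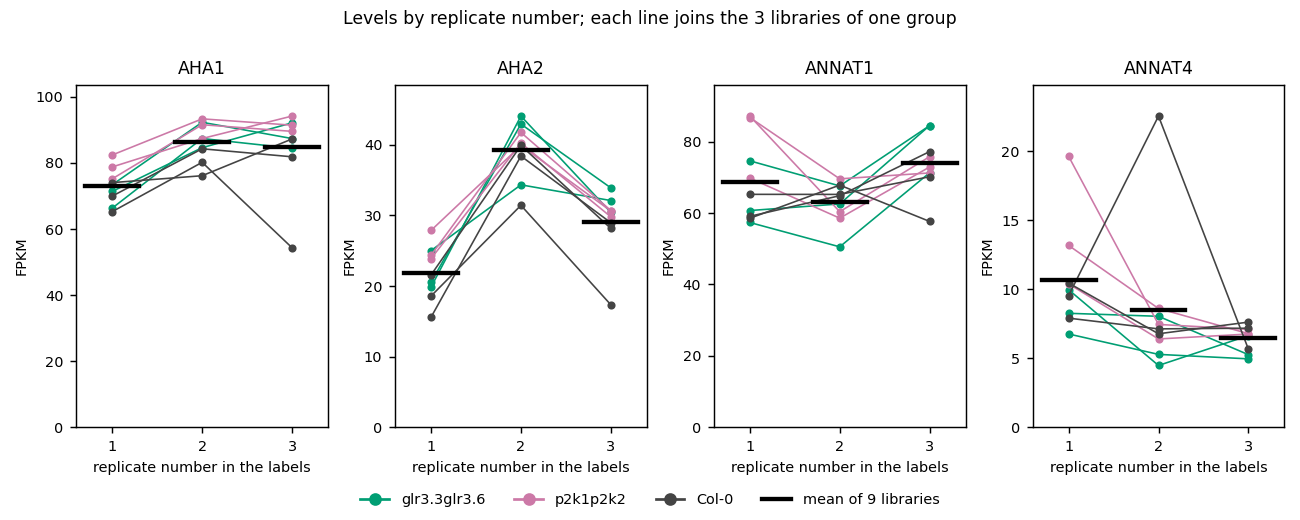
FPKM of AHA1, AHA2, ANNAT1 and ANNAT4 (y axis, linear) by replicate number (x axis); each line joins the 3 libraries of a group, coloured by genotype, and a bar marks the mean of the 9 libraries of a number. AHA2 peaks at number 2 in all 9 groups, with means of 21.9, 39.2 and 29.1 FPKM for numbers 1, 2 and 3.

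AHA1 had a lowest, median and highest value of 65.3, 73.4 and 82.4 FPKM in number 1, 76.1, 87.4 and 93.4 FPKM in number 2 and 54.3, 87.4 and 94.2 FPKM in number 3. Number 1 was below number 2 in 9 of 9 groups, by a ratio of number 2 to number 1 of 1.03 to 1.32. The mean was 73.0 ± 5.53 FPKM in number 1 (SD, n = 9) and 85.6 ± 9.18 FPKM in numbers 2 and 3 (SD, n = 18), a difference of -0.22 ± 0.05 (SE; adjusted p = 0.00116 by limma). AHA3 and AHA11 were not called in either comparison of numbers, nor were MSL10, ANNAT2 and ANNAT3.

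ANNAT4 went the other way. Its lowest, median and highest values were 6.76, 9.97 and 19.6 FPKM in number 1, 4.48, 7.13 and 22.6 FPKM in number 2 and 4.96, 6.76 and 7.62 FPKM in number 3. Number 1 was the highest of its group in 8 of 9 groups, with Col-0 mock the exception. It averaged 10.7 ± 3.83 FPKM in number 1 (SD, n = 9) against 7.48 ± 3.92 FPKM in numbers 2 and 3 (SD, n = 18), a difference of 0.49 ± 0.16 (SE; adjusted p = 0.0127 by limma). ANNAT1 was lower in number 2 than in number 3, at 63.0 ± 5.89 against 73.9 ± 8.15 FPKM (SD, n = 9 each; -0.22 ± 0.08, SE; adjusted p = 0.0333 by limma). Number 2 was its lowest library in 6 of 9 groups. Leaving out 1 library ended the ANNAT1 call for 11 of the 27, with adjusted p up to 0.0818.

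Markers of leaf cell types differed with the replicate number too. Of all tested genes 53.2% were called for number 1 against the rest and 26.4% for number 2 against number 3. Calls among the markers are thus no result about cell types. The summed FPKM of 5 mesophyll markers averaged 24612 ± 1539, 29476 ± 1423 and 26194 ± 1567 in numbers 1, 2 and 3 (SD, n = 9 each). That of the guard cell markers was 1437 ± 407, 1702 ± 178 and 1113 ± 133 FPKM, that of the phloem markers 154 ± 7.26, 174 ± 9.91 and 154 ± 8.29 FPKM, and that of the epidermis markers 908 ± 133, 901 ± 79.0 and 1047 ± 208 FPKM. The mesophyll, phloem and guard cell sums were highest in number 2, where AHA2 was highest. Nearly all of the guard cell sum was TGG1, at 1409, 1666 and 1085 FPKM, while the guard cell genes KAT1 (3.4, 7.59 and 4.93 FPKM) and HT1 (1.88, 3.15 and 2.48 FPKM) were lowest in number 1. MYB60 was lower in number 1 as well, at 4.59 against 7.02 FPKM in numbers 2 and 3. OST1, of the same list, went the other way, at 8.25 ± 1.66 against 5.61 ± 1.27 FPKM (0.49, adjusted p = 1.85e-07 by limma). The guard cell genes thus did not share a direction between number 1 and the rest. Those called between numbers 2 and 3 were all higher in number 2: FAMA (0.25), KAT1 (0.54), HT1 (0.26), OST1 (0.28) and TGG1 (0.62). Of the phloem markers, SUC2, SEOR1 and SEOR2 were lower in number 1 than in numbers 2 and 3 and PP2-A1 was higher. The root markers RHD6 and EXP7 were at 0 in all 27 libraries. The part of cell composition in the AHA1, AHA2, ANNAT1 and ANNAT4 differences was not tested.

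Some of the 9 genes went up and down together over the 27 libraries. All 36 pairs were correlated on the log2(FPKM + 1) scale, with permutation p-values from 100000 draws, of which 1e-05 is the smallest they can give, and adjustment over the 36 pairs. Libraries of the same number may not be independent, and replicate number moved several of these genes. AHA1 and AHA2 had Pearson's r = 0.772 (adjusted permutation p = 0.00036) and Spearman's rho = 0.762 (adjusted permutation p = 0.00072). Without Col-0 eATP 1 and 3, the libraries farthest from the median of AHA1, r was 0.712, and within numbers 1, 2 and 3 it was 0.456, 0.614 and 0.941. With group and number means removed it was 0.515. AHA1 and AHA3 had r = 0.670 (adjusted permutation p = 0.0072) but rho = 0.344, and r was 0.346 without the same 2 libraries, so the pooled relation rests on them. With group and number means removed and all 27 libraries kept, r was 0.769. AHA1 and MSL10 had r = 0.538 (adjusted permutation p = 0.0302) and rho = 0.606 (adjusted permutation p = 0.0178), with 0.542 without the 2 farthest libraries, and 0.652, 0.473 and 0.383 within the numbers. It was 0.257 with group and number means removed, and the permutations did not hold the number fixed. By rho alone AHA2 and MSL10 (0.535, adjusted permutation p = 0.0370) and ANNAT1 and ANNAT2 (0.52, adjusted permutation p = 0.0464) also passed. AHA3 and ANNAT4 ran opposite ways (rho = -0.560, adjusted permutation p = 0.0355). With group and number means removed, ANNAT2 had r = -0.660 with AHA1 and -0.741 with AHA3, which was not tested.

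ANNAT3 and ANNAT4 lie next to each other in the RefSeq gene table of TAIR10.1, and were high in the same 2 libraries. Col-0 mock 2 had 3.97 FPKM of ANNAT3 and 22.6 FPKM of ANNAT4, and p2k1p2k2 mock 1 had 2.5 and 19.6 FPKM. Both are mock libraries, of different genotype and number. No other library exceeded 1.49 FPKM of ANNAT3 or 13.2 FPKM of ANNAT4. Their r was 0.772 (adjusted permutation p = 0.0018) and their rho 0.482 (permutation p = 0.0117, adjusted 0.0603). Without the 2 libraries r was 0.368, and within numbers 1, 2 and 3 it was 0.911, 0.851 and -0.191. The pooled relation therefore rests on these libraries. With group and number means removed and all 27 kept, r was 0.761.

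**Figure D5:**
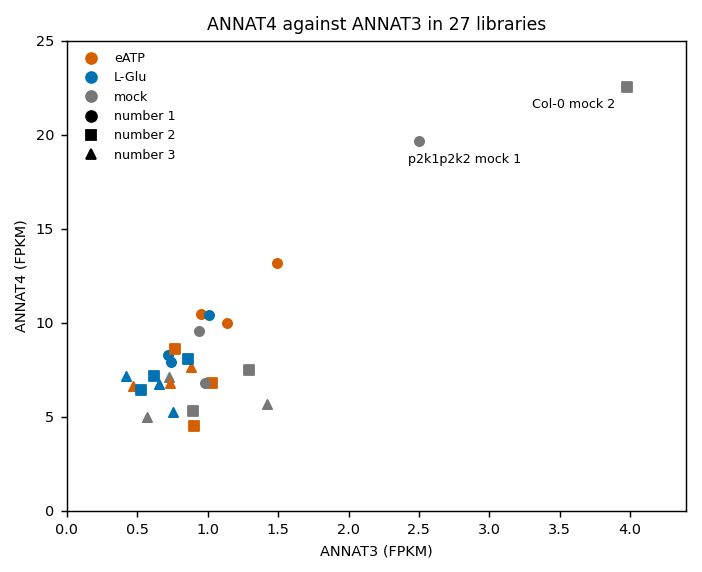
FPKM of ANNAT4 (y axis) against FPKM of ANNAT3 (x axis) in the 27 libraries, both axes linear, with colour for the treatment and marker shape for the replicate number. Col-0 mock 2 and p2k1p2k2 mock 1 lie far from the other 25 libraries, at 22.6 and 19.6 FPKM of ANNAT4.

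In the same gene table the annotated spans of AHA11 and GTR2, of ANNAT1 and PUM9, and of ANNAT2 and AT5G65030 overlap. Whether the authors counted by strand is not given in the sources used here. The neighbours averaged 7.59 FPKM for GTR2, 0.223 FPKM for PUM9 and 0.130 FPKM for AT5G65030, against 26.2, 68.6 and 20.1 FPKM for the 3 genes themselves.

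Proteins that act on the pumps were followed as a list of 19 genes, all tested. None was called in any comparison of treatments or of genotypes. Between replicate numbers 2 were higher and 8 lower in number 1 than in numbers 2 and 3 (list median -0.04, all genes -0.07), which is near the 53.2% called among all tested genes and so no result about this list. The 4 with the smallest p were APD6 (AT4G38520), a clade D phosphatase, with 13.4 ± 0.837 FPKM in number 1 against 19.2 ± 1.58 FPKM in numbers 2 and 3 (-0.49; adjusted p = 1.05e-08 by limma), the 14-3-3 proteins GRF4 (66.7 ± 6.69 against 81.7 ± 4.43 FPKM, -0.29) and GRF2 (-0.26), and the kinase CIPK11, which inhibits AHA2 and was higher in number 1 (32.7 ± 11 against 16.5 ± 4.98 FPKM, 0.94; adjusted p = 3.30e-05 by limma). In number 2 against number 3, 2 regulators were higher and 1 lower, where 26.4% of all tested genes were called, with GRF1 at 280 against 225 FPKM (0.32). The most abundant of the list, GRF6, averaged 331 FPKM.

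Of the 9 vacuolar proton pump genes, 3 were lower in number 1, near the 34.7% of all tested genes that were called lower, and 0 were called in any comparison of treatments or of genotypes. AVP1, the vacuolar proton pyrophosphatase, averaged 238 ± 21.9 FPKM in number 1 (SD, n = 9) and 298 ± 36.9 FPKM in numbers 2 and 3 (SD, n = 18), a difference of -0.32 (adjusted p = 9.03e-05 by limma). AHA5 was lower in number 1 too, at 4.19 ± 0.293 against 4.84 ± 0.541 FPKM (-0.17; adjusted p = 0.00732), and AHA8 lower in number 2 than in number 3, at 2.27 ± 0.246 against 2.85 ± 0.340 FPKM (-0.24; adjusted p = 0.0101). Of the 9 other MscS-like genes 5 were tested. MSL3 was higher in number 1 than in numbers 2 and 3, at 50.1 ± 11.1 against 40.5 ± 4.23 FPKM (0.28; adjusted p = 0.00475 by limma).

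Among 5 other genes for channels linked to membrane stretch, 4 were tested, and MCA1 and MCA2, calcium-permeable plasma membrane proteins, were lower in number 1 (-0.19 and -0.23, adjusted p = 0.00272 and 0.00633 by limma). Of all tested genes 34.7% were called lower in that comparison and 26.4% were called between numbers 2 and 3, so these calls are no result about this list. MCA2 was at 21.3 ± 1.64 FPKM in number 2 and 13.6 ± 1.54 FPKM in number 3 (SD, n = 9 each; 0.62, adjusted p = 1.08e-05 by limma). AT1G11960, of the same list, was the 1 gene of all these lists called in a comparison of genotypes. It had a lowest, median and highest value of 16, 17.4 and 23.5 FPKM in p2k1p2k2 against 8.54, 11.9 and 19.2 FPKM in glr3.3glr3.6, and the ranges overlapped. The difference was 0.56 ± 0.12 (SE; adjusted p = 0.0434 by limma). Leaving out 1 of the 18 libraries gave adjusted p-values from 0.00952 to 0.130, at or above the threshold for 12 of the 18. Its median in Col-0 was 17.9 FPKM.

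The genes whose levels were most alike over the 27 libraries were found for each of the 9 by Pearson correlation over the tested genes, as a description. The closest to AHA1 were AT4G38120 (r = 0.955) and VPS54 (0.940), to AHA2 IQD31 (0.943) and AT5G02890 (0.932), and to AHA3 EDM2 (0.884) and AT4G32760 (0.863). AHA11 had no gene nearer than AAE15 (0.687). MSL10 was nearest to ARC6 (0.74), a plastid division protein, and EIF3C (0.730). For ANNAT1 they were AT1G04990 (0.826) and AT5G63680 (0.788), and for ANNAT2 AT1G54460 (0.765) and AT1G31500 (0.760). ANNAT3 was nearest to AT4G09845 (0.838) and to ANNAT4 (0.772), and ANNAT4 to AT5G44050 (0.784) and the anion channel gene SLAH3 (0.778). All of these values were taken over the same 27 libraries, which include 9 of each replicate number.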

How the data were processed

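Per the labels' protocols, systemic leaves were pooled from 8 plants per library. Per the submitters' processing notes, HISAT2 2.2.1, Cufflinks 2.2.1, Cuffdiff 2.2.1, Trim Galore 0.6.7, SAMtools 1.19 and FastQC 0.11.9 were used with TAIR10. The deposited values are FPKM made by the authors; whether they were scaled further between libraries is not given in the sources used here. Gene identifiers were matched to RefSeq names (32539 matched, 285 did not). Log2(FPKM + 1) was fitted for genes whose mean reached 1 FPKM, in limma 3.58.1 (R 4.3.3; eBayes with trend) with 1 mean per group over all 27 libraries, leaving 18 residual degrees of freedom and adding 3.09 prior ones. Comparisons of replicate numbers added the number as a term. Tests were two-sided, with Benjamini-Hochberg adjustment within each of the 23 comparisons. Correlations used SciPy 1.17.1. The fit was tested on simulated data, where a share of genes to be recovered was required only for the largest changes put in. It therefore does not show that changes as small as the treatment differences here would be found. The 9 genes and the gene lists were chosen with earlier results of these data known. From other lists, up to 4 called genes by smallest p were named.

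Same-numbered libraries were checked for pairing by correlating their deviations from the group means: 102 of 108 pairs exceeded 0.1, so the numbers paired the libraries in some comparisons and not in others. Alternatives changed the pseudocount (0.1), the filter (none, or 5 FPKM) or the scaling (quantile, median-of-ratios), weighted the libraries, blocked on the number, fitted only the groups at issue, or left out each library in turn. No coordinates or sequences are given, since no genome was used here.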

Additional observations from a re-analysis of the deposited data

How the results depend on the processing

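The calls of AHA2, AHA1 and ANNAT4 between number 1 and numbers 2 and 3 held in every alternative run, and no result reversed. Over 4247 recomputed values of the 9 genes, 11 newly passed the threshold and 12 no longer did. Another 266 changed sign without being called. Of the 9 genes, 1 rather than 2 was called between numbers 2 and 3 without the filter on low values (ANNAT1, adjusted p = 0.0503), and 1 to 2 when a library was left out; between number 1 and the rest, 3 to 4 were called when a library was left out, with ANNAT3 added without Col-0 mock 1 (adjusted p = 0.0280) or Col-0 mock 2 (adjusted p = 0.0473). For p2k1p2k2 against Col-0 averaged over treatments, 1 was called with library weights (ANNAT2, adjusted p = 0.0114) and 0 to 1 when a library was left out, rather than 0. The cause was not tested. With a pseudocount of 0.1 the ANNAT3 difference for L-Glu in Col-0 was -1.45.

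Replicate numbers did not pair the libraries throughout: the lowest correlation between same-numbered libraries was 0.0369. With the replicate number as a block across genotypes, 3 of the 9 genes were called for p2k1p2k2 against Col-0 averaged over treatments (AHA1, AHA2 and ANNAT2, adjusted p = 0.0265, 0.0307 and 0.0219), and with the block within genotype also 3 (0.0328, 0.0352 and 0.0206). The block changed no other call of the 9 genes. It raised the count of all genes called in that comparison from 18 to 1098 and 1156, in glr3.3glr3.6 against Col-0 from 25 to 381 and 394, and between the mutants from 46 to 445 and 557. Library weights gave 157, 41 and 247. In p2k1p2k2 against Col-0, median-of-ratios scaling gave 32 (9 higher and 23 lower, against 11 and 7), a minimum of 5 FPKM gave 11, and a fit of only the libraries compared gave 10. Treatment comparisons called 0 to 3 genes of the table under most alternatives, 8 for eATP in glr3.3glr3.6 with the block within genotype and 33 for L-Glu in glr3.3glr3.6 with library weights, none of them among the 9. AT1G11960 was not called without the filter (adjusted p = 0.0610) or in a fit of only the libraries compared (adjusted p = 0.112). FPKM without counts leave depth unknown, which limits ANNAT3 and MSL10 most.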
